A study of Mus musculus with 6 samples.

Results

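The genes described here encode major secretory proteins of the mouse prostate. The set was fixed by name as Pbsn, Tgm4, 9530053A07Rik, Msmb, Sbp, Sbpl and Azgp1, which are 7 of the 34745 genes in the table and 7 of the 15580 that were abundant enough to test. RNA was sequenced from the prostates of 6 male C57BL/6 mice, 1 library per mouse, aged 6 to 8 weeks at the start. In the T + E2 group, 3 mice carried subcutaneous slow-release pellets of testosterone and estradiol for 12 weeks, with the pellets renewed each month. In the control (CON) group, 3 mice had the skin incision without a pellet. No engineered allele is named for either group, and which lobes were taken is not given in the sources used here. Because the tissue was sequenced in bulk, fewer cells of a type and less RNA per cell cannot be told apart in any result below.

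The prostate is an exocrine gland. Its luminal cells fill the ducts with proteins that mix with sperm and with seminal vesicle fluid at ejaculation, and many of the genes for these proteins are switched on by testosterone. The mouse gland has several paired lobes, each of which secretes its own mixture, so that a secretory gene can be abundant in one lobe and scarce in another. Pbsn (probasin) is a small lipocalin whose androgen-driven promoter is widely used to direct transgenes to prostate epithelium. Tgm4 is the prostate transglutaminase that cross-links seminal vesicle proteins into the copulatory plug. Msmb, beta-microseminoprotein, is a small cysteine-rich protein of seminal plasma. Sbp encodes spermine-binding protein, and Sbpl is its close neighbour and relative. Azgp1, zinc-alpha-2-glycoprotein, has a fold like that of the major histocompatibility class I molecules and is also known for its action on fat breakdown. The gene with the working name 9530053A07Rik is a relative of Fcgbp, which encodes a mucin-like protein that binds the Fc part of IgG.

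The libraries held 14816146 to 16555549 counts on genes, and their normalization factors lay between 0.956 and 1.027. The luminal keratin gene Krt8 had 299.6 to 412.6 CPM (counts per 1000000 counts of the normalized library) in CON mice and 319.6 to 331.6 in T + E2 mice (both groups held luminal epithelium by this marker), and the prostate homeobox gene Hoxb13 had 389.3 CPM or more in all 6 mice. CON mouse 2 stood apart. The summed level of 8 seminal vesicle markers (Svs1 to Svs6 family members and Pate4) was 10325 CPM in it and 643 CPM in T + E2 mouse 2, against 0.629 to 4.11 CPM in the other 4 mice. Svs2, a gene of the seminal vesicle clot proteins, held 3371 counts in CON mouse 2, 7949 in T + E2 mouse 2 and 3 to 23 elsewhere. The summed level of 8 fat and skeletal muscle markers was 909.8 CPM in CON mouse 2 and 175.6 to 297.1 CPM elsewhere. Values without CON mouse 2 are therefore given beside the results that this mouse moved. Values without T + E2 mouse 2 are given beside those of Pbsn, Tgm4, 9530053A07Rik, Sbp and Sbpl.

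The 7 genes did not all move the same way. With DEGs (differentially expressed genes) defined by an adjusted p below 0.05 and an absolute log2 fold change above 1, Pbsn, Tgm4, 9530053A07Rik and Sbpl were lower in the T + E2 group, and Msmb was higher. Azgp1 rose past the adjusted p but not past the fold, and Sbp passed neither. These 5 calls stood beside a background of 7.64% of the tested genes, 3.38% lower and 4.27% higher. The median log2 fold change of the 7 genes was -1.80, against -0.002 for all tested genes. The CON and T + E2 values did not overlap for 6 of the 7 genes, beside 40.7% of all tested genes.

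**Figure D1:**
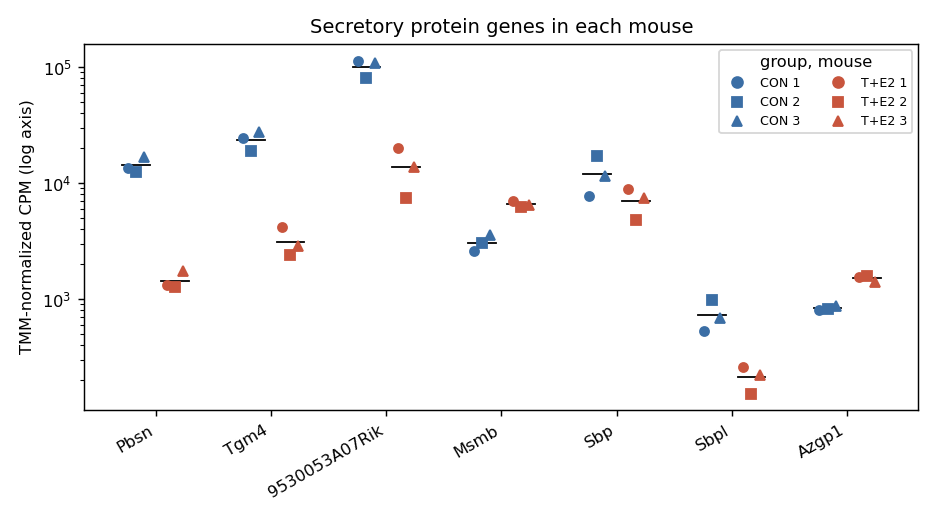
Each point is the CPM of a secretory protein gene in 1 mouse, on a log axis, with CON mice in blue, T + E2 mice in red and a short line at each group mean (n = 3). The groups are apart for Pbsn, Tgm4, 9530053A07Rik, Sbpl (lower) and Msmb and Azgp1 (higher), and overlap for Sbp.

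The promoters of these genes are shown because many genes for prostate secretory proteins are switched on by testosterone. RefSeq windows on GRCm38.p6, running from 250 bases before to 50 bases after a RefSeq start, were at hand for 6 of the 7 genes, and Msmb was not matched. The windows were searched on both strands for the androgen response half-site AGAACA, for the full palindrome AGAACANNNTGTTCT, which contains that half-site, and for the TATA box TATAAA. The sequences below run 5′ to 3′ on the strand of the gene, lie before every annotated start of that gene except in Pbsn, and carry the matched letters in capitals. Azgp1, one of the genes that was higher, is shown beside those that were lower. Its half-site match lies after the RefSeq start, outside the stretch printed.

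Tgm4, chr9:123034491-123034725, plus strand: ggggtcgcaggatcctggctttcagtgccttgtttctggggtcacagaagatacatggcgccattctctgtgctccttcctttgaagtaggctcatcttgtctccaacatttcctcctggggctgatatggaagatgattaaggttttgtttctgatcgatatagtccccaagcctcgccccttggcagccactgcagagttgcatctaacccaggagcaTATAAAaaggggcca
9530053A07Rik, chr7:28129216-28129465, plus strand: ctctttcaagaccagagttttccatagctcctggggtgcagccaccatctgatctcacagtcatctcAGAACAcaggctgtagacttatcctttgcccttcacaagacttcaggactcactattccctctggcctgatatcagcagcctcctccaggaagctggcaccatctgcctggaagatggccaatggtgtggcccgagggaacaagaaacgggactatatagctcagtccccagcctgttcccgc
Sbpl, chr17:23955275-23955523, minus strand: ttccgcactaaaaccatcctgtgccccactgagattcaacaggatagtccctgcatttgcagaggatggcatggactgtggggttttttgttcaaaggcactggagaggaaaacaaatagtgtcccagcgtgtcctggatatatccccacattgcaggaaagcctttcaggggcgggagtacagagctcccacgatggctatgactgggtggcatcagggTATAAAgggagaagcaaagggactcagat
Azgp1, chr5:137981271-137981519, plus strand: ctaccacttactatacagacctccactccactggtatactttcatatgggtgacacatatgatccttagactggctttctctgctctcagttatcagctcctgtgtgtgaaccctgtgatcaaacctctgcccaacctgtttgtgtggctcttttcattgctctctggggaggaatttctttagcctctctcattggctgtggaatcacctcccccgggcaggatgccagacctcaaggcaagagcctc
Pbsn half-site, chrX:77853578-77853607, minus strand: caactgggatgcAGAACActgctcacgcca
Pbsn TATA box, chrX:77853542-77853571, minus strand: ctgaaagccaacTATAAAaagcagagagat

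The 6 genes had 8 windows between them, so the counts of genes below and the shares of windows are unlike units. The half-site letters were found in 4 of the 6 genes and in 19.0% of all 32851 windows. Counted from the RefSeq start, its first base was at -183 in 9530053A07Rik and -95 in Pbsn on the strand of the gene, and at -64 in Sbp and 15 in Azgp1 on the opposite strand. The Sbp match lies inside the annotated gene, after its first annotated start. The TATA box was found in 3 of the 6 genes and in 13.6% of all windows. It began at -30 in both Tgm4 and Sbpl, and at -59 in Pbsn, where a second annotated transcript starts further upstream and takes both stretches into its first exon. The full palindrome was in none of these genes and in 0.00913% of all windows (3 of them). These are matches of letters, and the genes with a half-site included ones that were lower (Pbsn, 9530053A07Rik), one that was higher (Azgp1) and one that passed no test (Sbp).

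Pbsn (ENSMUSG00000000003, chrX:77837901-77853623, minus strand, GRCm38) had the largest fall of the 7 genes. Its level was 13528, 12356 and 16646 CPM in CON mice 1, 2 and 3, and 1321, 1259 and 1754 CPM in T + E2 mice 1, 2 and 3. The highest T + E2 mouse was far below the lowest CON mouse. The means were 14177 ± 2217 and 1445 ± 269 CPM (SD, n = 3), a log2 fold change of -3.29 ± 0.178 (SE, 9.81-fold lower) with an adjusted p of 2.45e-05 in edgeR's quasi-likelihood test (Benjamini-Hochberg adjusted). On the FPKM scale, which divides a count by gene length and library size, Pbsn ranked 1, 2 and 1 among all genes of CON mice 1, 2 and 3, and 36, 38 and 26 in T + E2 mice.

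Tgm4 (ENSMUSG00000025787, chr9:123034739-123067561, plus strand) fell nearly as far. The CON mice had 24365, 18807 and 27266 CPM, and the T + E2 mice had 4141, 2391 and 2856 CPM, with no overlap. The log2 fold change was -2.91 ± 0.232 (7.50-fold lower, adjusted p = 0.000158 by the same edgeR test). In the GENCODE M21 annotation, Tgm4 overlaps the opposite-strand gene Zdhhc3, with which its transcripts share 830 bases, and whether counting used the strand is not given in the sources used here. Zdhhc3 itself held 860 to 913 counts in CON mice and 1072 to 1113 in T + E2 mice.

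9530053A07Rik (ENSMUSG00000078776, chr7:28129466-28164811, plus strand) took the most counts of any gene in each CON mouse. It had 112968, 80148 and 107958 CPM in CON mice and 20065, 7402 and 13597 CPM in T + E2 mice. The T + E2 values were spread over a wider range in proportion to their mean than those of Pbsn, but all lay below the CON values. The log2 fold change was -2.87 ± 0.339 (7.33-fold lower, adjusted p = 0.00107 by the same edgeR test). Its transcripts share 86.2% of bases with Fcgbp over 5892 aligned bases, so reads of the pair could be split. Fcgbp, far scarcer, fell too, from 49.5 to 60.9 CPM in CON mice to 11.2 to 14.7 CPM in T + E2 mice (log2 fold change -2.04, adjusted p = 6.58e-05 by edgeR).

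CON mouse 2, which carried the seminal vesicle and fat transcripts, was the lowest CON mouse for Pbsn, Tgm4 and 9530053A07Rik. Without it the log2 fold changes of these genes were -3.39, -3.05 and -3.01, so that the falls were as large without that library. T + E2 mouse 2, which also carried seminal vesicle transcripts, was the lowest T + E2 mouse for the same genes. Without T + E2 mouse 2 the log2 fold changes were smaller, at -3.204, -2.745 and -2.574.

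Sbp and Sbpl lie 7476 bases apart on opposite strands of chromosome 17. Sbp (ENSMUSG00000024128, chr17:23941672-23945607, plus strand) had 7776, 16891 and 11456 CPM in CON mice and 8936, 4768 and 7428 CPM in T + E2 mice. T + E2 mouse 1 lay above CON mouse 1, so the groups overlapped. The log2 fold change was -0.77 ± 0.306 with an adjusted p of 0.115 by edgeR's quasi-likelihood test. That value turned on single libraries. It was -0.45 without CON mouse 2, the highest in Sbp (adjusted p = 0.323 by edgeR), and -1.01 without CON mouse 1 (adjusted p = 0.048 by edgeR). Without T + E2 mouse 2 it was -0.56 (adjusted p = 0.302 by edgeR).

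Sbpl (ENSMUSG00000024125, chr17:23953085-23954919, minus strand) was the scarcer of the pair and did fall. It had 533.2, 990.0 and 681.2 CPM in CON mice and 259.1, 153.7 and 222.2 CPM in T + E2 mice, and every T + E2 mouse was below every CON mouse. The log2 fold change was -1.80 ± 0.262 (3.47-fold lower, adjusted p = 0.00277 by edgeR's quasi-likelihood test), and without CON mouse 2 it was -1.52 (adjusted p = 0.00446). Without T + E2 mouse 2 it was -1.61 (adjusted p = 0.012 by edgeR).

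Transcripts of the pair match at 98.5% of 462 aligned bases, so the counting could have moved reads between them. Summed as 1 gene, Sbp and Sbpl changed by -0.82 on the log2 scale with an adjusted p of 0.0974 by edgeR, with -1.05 (adjusted p = 0.0427) without CON mouse 1. The same sum by edgeR was -0.50 (adjusted p = 0.275) without CON mouse 2 and -0.60 (adjusted p = 0.262) without T + E2 mouse 2. Within a mouse, Sbpl counts were 6.86, 5.86 and 5.95% of Sbp counts in CON mice and 2.90, 3.22 and 2.99% in T + E2 mice. The ratio was thus lower in every T + E2 mouse and varied little inside a group, at 6.22 ± 0.552 and 3.04 ± 0.167% (SD, n = 3). The exact two-sided permutation p was 0.1, the smallest that 3 mice against 3 allow, and the ratio was chosen after its values were seen.

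Msmb (ENSMUSG00000021907, chr14:32142026-32158370, plus strand) was the one DEG of the 7 that was higher. Its level was 2586, 3017 and 3569 CPM in CON mice and 7044, 6231 and 6422 CPM in T + E2 mice, without overlap. The log2 fold change was 1.10 ± 0.134 (2.15-fold higher, adjusted p = 0.00122 by edgeR's quasi-likelihood test). Without CON mouse 1 the change was 0.99 (adjusted p = 0.00342 by edgeR), just under the fold that defines a DEG, which leaves 0 DEGs that were higher. On the FPKM scale Msmb moved from rank 12, 11 and 9 among all genes of the CON mice to rank 3, 5 and 3 in T + E2 mice.

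Azgp1 (ENSMUSG00000037053, chr5:137981520-137990233, plus strand) had the tightest values of the 7 genes. It had 798.3, 826.3 and 870.4 CPM in CON mice and 1544, 1587 and 1412 CPM in T + E2 mice. All T + E2 mice were higher, and the log2 fold change was 0.86 ± 0.0964 (1.82-fold higher, adjusted p = 0.000805 by edgeR's quasi-likelihood test). It counts among the 6 of the 7 genes past the adjusted p, beside 19.6% of all tested genes.

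**Figure D2:**
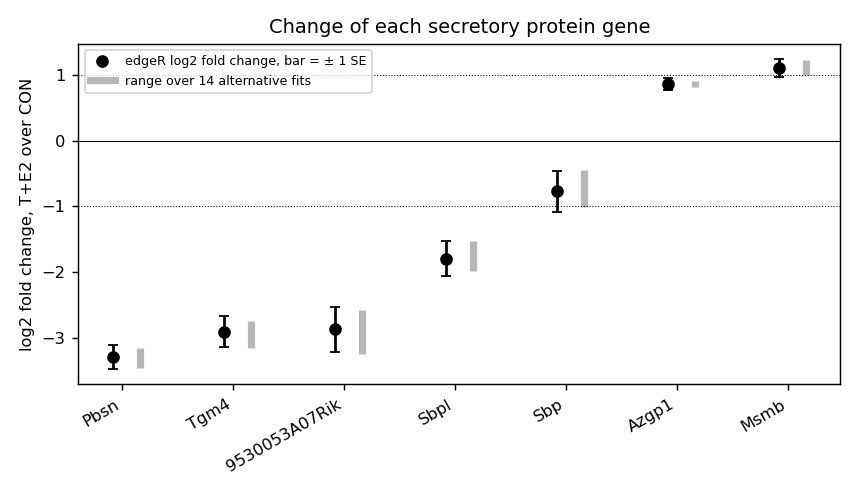
Points give the log2 fold change of each gene (T + E2 over CON) with a bar of 1 SE, grey bars give the range over 14 alternative fits, and dotted lines mark log2 fold changes of 1 and -1. The range of Pbsn runs from -3.46 to -3.16, that of Sbp from -1.01 to -0.45, and that of Msmb crosses the upper dotted line at 0.99.

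Levels of different genes can be compared only per length, so the deposited FPKM were used for their order. In the CON group the mean FPKM was 11579 ± 1603 for Pbsn, 7358 ± 1247 for 9530053A07Rik, 5596 ± 945 for Tgm4, 5273 ± 774 for Msmb, 2923 ± 1138 for Sbp, 856 ± 279 for Sbpl and 390.4 ± 11.9 for Azgp1 (SD, n = 3). The ranges of 9530053A07Rik and Tgm4 overlapped, as did those of Tgm4 and Msmb, and the other neighbours in this order were apart. In the T + E2 group Msmb led at 11038 ± 468 FPKM, followed by Sbp at 1659 ± 472, Pbsn at 1154 ± 242, 9530053A07Rik at 973 ± 429, Tgm4 at 725 ± 191, Azgp1 at 693 ± 34.6 and Sbpl at 239 ± 57.0. There Msmb stood clear of the rest, the ranges of neighbours from Sbp down to Azgp1 overlapped, and Sbpl was below Azgp1.

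The order depends on the gene lengths assumed, and not only on that of Sbp. The deposited FPKM of Sbp correspond to a gene length of 4175 bases, 2.84 times the 1471 exon bases of the GENCODE M21 annotation. That length exceeds the whole annotated span of Sbp given above, introns included. For the other 6 genes the ratio of the lengths was 0.931 to 1.37. With the M21 exon length, Sbp had a mean of 8295 ± 3229 RPKM in the CON group, next to 8568 ± 1452 for 9530053A07Rik, and 4708 ± 1339 in the T + E2 group. On M21 lengths in T + E2 mice, Sbp at 3215 to 5802 RPKM was apart from Pbsn at 1385 to 1966. Azgp1 at 887 to 978 RPKM then lay above Tgm4 at 521 to 868, the reverse of their order by deposited FPKM. The differences between groups of a single gene are not touched by the length assumed.

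Together the 7 genes took 16.6, 13.6 and 16.7% of all gene counts in CON mice and 4.14, 2.36 and 3.41% in T + E2 mice. The exact 95% binomial intervals of these shares and of those of single genes were at most 0.0379 percentage points wide, which covers counting error only. The group means were 15.6 ± 1.74 and 3.30 ± 0.893% (SD, n = 3), a difference of -12.3 percentage points with an exact two-sided permutation p of 0.1, the smallest possible here. As a share of summed FPKM the difference was -6.08 percentage points, and without 9530053A07Rik the share of counts differed by -3.53.

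9530053A07Rik alone held 11.5, 8.22 and 10.7% of the counts of the CON mice and 1.92, 0.734 and 1.38% of those of the T + E2 mice. Pbsn, Tgm4 and 9530053A07Rik together fell by 119752 CPM between the group means, which was 57.0% of the summed loss of all genes with a lower mean in the T + E2 group. Because CPM are shares of a library, a loss of this size leaves room for other genes, and the normalization without the 7 genes was tried for that reason and changed no call on them.

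**Figure D3:**
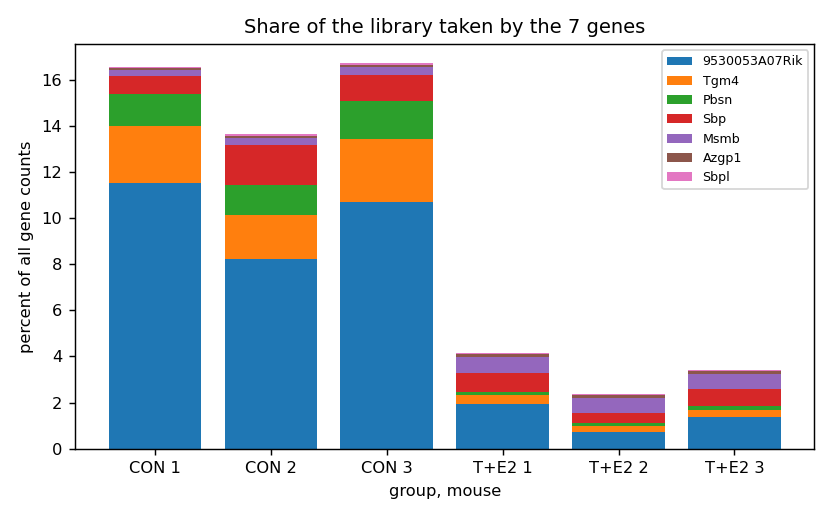
Each bar is 1 mouse, and its coloured parts are the percent of all gene counts on each of the 7 genes. The bars of the CON mice reach 13.6 to 16.7% and those of the T + E2 mice 2.36 to 4.14%, with 9530053A07Rik as the largest part in all 6.

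Inside this set the mixture differed as well. Of the summed counts of the 7 genes, 9530053A07Rik made up 64.6 ± 4.65% in CON and 39.3 ± 7.67% in T + E2 mice. Msmb made up 1.99 ± 0.356% and 20.5 ± 5.12%, Sbp 8.09 ± 4.11% and 20.9 ± 1.03%, and Azgp1 0.543 ± 0.0689% and 4.81 ± 1.64% (SD, n = 3). These are shares of a sum that itself became smaller.

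Ratios of 2 genes in the same mouse do not depend on library scaling. Relative to Pbsn, on the log2 FPKM scale, Tgm4 differed by 0.37 between the groups (exact two-sided permutation p = 0.3, adjusted 0.36) and 9530053A07Rik by 0.33 (exact permutation p = 0.7, adjusted 0.7). In both ratios the groups overlapped, and T + E2 mouse 1 was the highest of all 6 mice. Without that mouse the difference for 9530053A07Rik was -0.06, the opposite sign. The ratios to Pbsn of Sbpl, Sbp, Azgp1 and Msmb were higher in every T + E2 mouse than in every CON mouse, by 1.52, 2.55, 4.16 and 4.41 on the log2 scale. Each of these had an exact two-sided permutation p of 0.1, the smallest possible, and 0.15 after Benjamini-Hochberg adjustment over the 6 ratios.

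**Figure D4:**
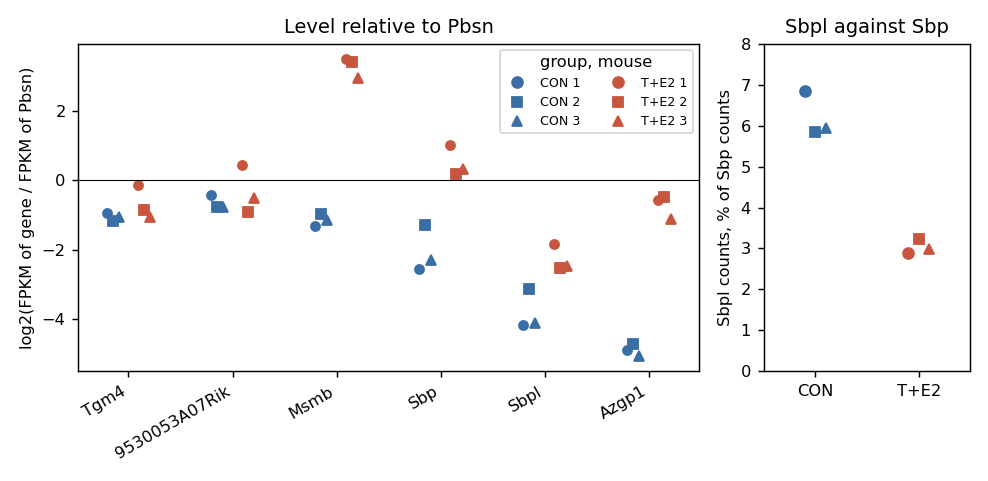
The left panel plots, for each mouse, log2 of the FPKM of a gene over that of Pbsn, and the right panel plots Sbpl counts as a percent of Sbp counts. Tgm4 and 9530053A07Rik overlap between the groups, Msmb goes from between -1.31 and -0.956 in CON mice to between 2.95 and 3.49 in T + E2 mice, and Sbpl over Sbp lies at 5.86 to 6.86% and 2.90 to 3.22%.

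The variation between mice of 1 group also ran through several of these genes. CON mouse 2 was the highest of its group in Sbp and Sbpl and the lowest in Pbsn, Tgm4 and 9530053A07Rik. T + E2 mouse 1 was the highest of its group in Tgm4, 9530053A07Rik, Sbp and Sbpl, and T + E2 mouse 2 was the lowest in all of these and in Pbsn. Over the 6 mice, the profiles of log2 CPM centred on their mean were closest for Msmb and Azgp1, with a root mean square difference of 0.174, and for Tgm4 and 9530053A07Rik, with 0.222. Pbsn and Msmb were furthest apart, at 2.21. These distances describe 6 libraries that share their grouping.

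Outside the 7 genes themselves, 5772 tested genes had a mean log2 CPM of 5 or more, and the most similar profiles among these were named for each gene. Atp12a, a proton and potassium pump of epithelia, was the nearest of them for Tgm4 (root mean square difference 0.125) and for 9530053A07Rik (0.191), and Glb1l3, a beta-galactosidase-like gene, was the next of them for both (0.186 and 0.346). Atp12a had 245.8, 219.0 and 315.4 CPM in CON mice and 52.9, 25.0 and 35.7 CPM in T + E2 mice. For Pbsn the nearest outside the set was Pgm2l1, a glucose bisphosphate synthase (0.371), followed by Atp12a (0.408), while Tgm4 inside the set was closer (0.347).

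For Msmb the nearest genes were Aga, a lysosomal amidase (0.0795), and Slc39a11, a zinc transporter (0.0912). For Azgp1 they were Atp1b3, a sodium pump subunit (0.039), and Sdf4, a calcium-binding protein of the Golgi (0.0391). Sbp was nearest to Lipe, the hormone-sensitive lipase of fat cells (0.17), and to Col6a3 (0.235). Lipe was highest in CON mouse 2, the mouse with the most fat and muscle marker RNA, as was Sbp itself, and the part of that RNA in the likeness was not tested. Sbpl was nearest to Bhlha15, a transcription factor of secretory cells (0.266), and to Fmod (0.294).

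Among other secretory genes of the prostate, the DEGs were mostly higher. Of 19 tested genes of such a list, which holds protease inhibitors, kallikreins, defensins and the antibody transporter Pigr, 8 were DEGs that were higher and 1, the metalloprotease gene Mmp7, was lower, with a median log2 fold change of 0.97. Over all tested genes, 4.27% were DEGs that were higher and 3.38% were lower. Of the 19, 2 passed the filter on low counts only with the T + E2 libraries, while each of the 7 secretory protein genes passed it in either group alone. Spink11 (5, 15 and 12 counts in CON mice 1, 2 and 3) was one of the 2, so its call as higher was largely fixed by the filter. Pigr went from 1642 ± 233 to 15205 ± 2878 CPM (SD, n = 3; log2 fold change 3.21, adjusted p = 3.06e-05 by edgeR). Wfdc3, a whey acidic protein family inhibitor, went from 684 ± 83.0 to 3020 ± 249 CPM. Klk1b24, a kallikrein, and Spink11, a protease inhibitor that also stands in the epididymis list, were near absent in CON mice, at 0.728 to 0.920 and 0.331 to 0.986 CPM. They reached 25.4 to 32.9 and 70.4 to 145.8 CPM in T + E2 mice. Spink1 had a log2 fold change of 0.72 (adjusted p = 0.0252 by edgeR), which is not past the fold for a DEG.

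The summed level of this list was 11006 to 12044 CPM in CON mice and 31772 to 39893 CPM in T + E2 mice, while the sum of the 7 genes was 133036 to 168448 and 23790 to 43310 CPM. By summed CPM, which are not per length, the other secretory genes together exceeded the 7 genes in T + E2 mouse 2. In each CON mouse they were far below them. The gene 9530053A07Rik, with 11843 exon bases, made up 64.6 ± 4.65% of the counts of the 7 genes in CON and 39.3 ± 7.67% in T + E2 mice (SD, n = 3). The order of the 2 sums therefore depends on gene length.

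Of 14 tested relatives of the transglutaminase, lipocalin, Fcgbp and zinc-alpha-2-glycoprotein families, Fcgbp and Tgm5 (log2 fold change -1.10) were lower and F13a1 (1.20), a clotting transglutaminase, was higher. By the same thresholds 3.38% of all tested genes were lower and 4.27% higher. Tgm2, the tissue transglutaminase, had a log2 fold change of 0.52 (adjusted p = 0.00563 by edgeR), under the fold for a DEG. The family median was 0.44.

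The machinery that carries proteins into the secretory route was described by 40 tested genes. One, Ssr3, a subunit of the translocon-associated complex, was a DEG that was higher (log2 fold change 1.32), beside 4.27% of all tested genes. By edgeR's quasi-likelihood test and by DESeq2 0 were lower, beside 3.38% of all tested genes by edgeR. At an unadjusted p below 0.05, 4 of the 40 were lower and 15 higher, beside 2667 lower and 2705 higher of all 15580 tested genes. The median of the 40 genes was 0.13. Xbp1, a transcription factor of the unfolded protein response, was at 321 ± 26.6 and 351 ± 8.75 CPM (SD, n = 3; adjusted p = 0.38 by edgeR). Creb3l4, a membrane-bound transcription factor abundant in prostate, had a log2 fold change of -0.99 (adjusted p = 0.00248 by edgeR), just short of the fold for a DEG.

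Of a list of 22 tested genes tied to hormone response in the prostate, 3 were DEGs that were higher and 1 was lower, beside 4.27 and 3.38% of all tested genes, and 10 passed the adjusted p, beside 19.6%. Hoxb13, a homeobox gene of the prostate, had 454.3 to 472.0 CPM in CON mice and 389.3 to 432.6 CPM in T + E2 mice, a log2 fold change of -0.15 ± 0.09 (SE; adjusted p = 0.276 by edgeR). Foxa1, a forkhead factor of luminal cells, had a log2 fold change of -0.41 (adjusted p = 0.0648 by edgeR). The prolactin receptor gene Prlr (1.39), Slc38a5 (1.75) and Steap4 (1.03) were DEGs that were higher, and Esr2, the estrogen receptor beta gene (-1.20), was lower. The median of the list was 0.01.

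**Figure D5:**
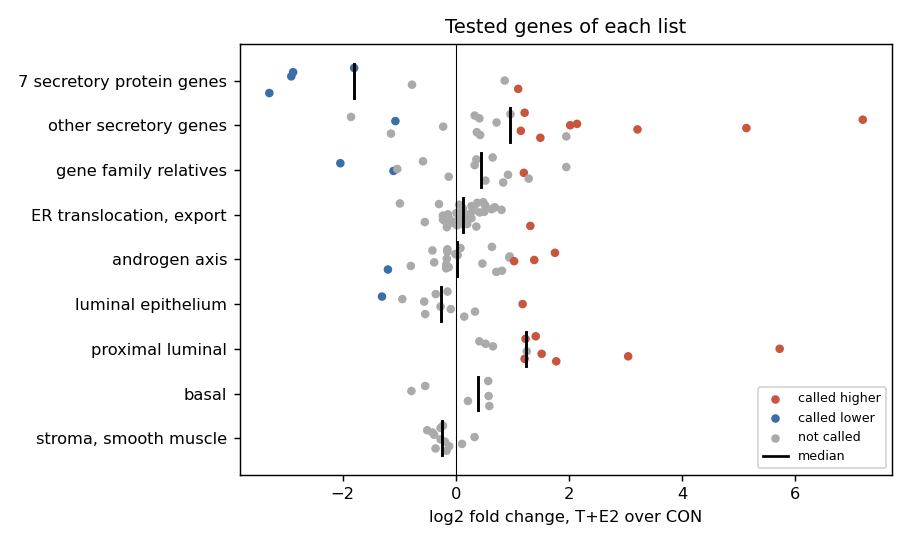
Each point is the log2 fold change (T + E2 over CON) of a tested gene, coloured red or blue where it was a DEG that was higher or lower and grey otherwise, with a black line at the median of each list. The 7 secretory protein genes have a median of -1.80, the other secretory genes 0.97, the proximal luminal genes 1.25, and the secretory route and androgen lists lie near 0 (0.13 and 0.01).

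Cell type markers moved beside these results. Of 11 general luminal markers, Epcam was a DEG that was higher (log2 fold change 1.18) and Cd24a one that was lower (-1.30). Over all tested genes these shares were 4.27 and 3.38%. At an unadjusted p below 0.05, 5 of the 11 were lower and 2 higher, beside 2667 lower and 2705 higher of all 15580 tested genes. Of the 11, 6 passed the adjusted p, beside 19.6% of all tested genes. Those past it but under the fold for a DEG were Spdef (-0.94), Tspan1 (-0.56) and Krt18 (-0.54), which fell, and Cdh1 (0.34), which rose, all named after their values were seen. The list had a median of -0.27 and a summed level of 4069 to 4829 CPM in CON mice and 4048 to 4108 CPM in T + E2 mice. Of 11 markers of the proximal luminal cells, which line the ducts near the urethra, 7 were higher and 0 lower by edgeR (0 lower also at an unadjusted p below 0.05 and by DESeq2). By edgeR 4.27% of all tested genes were higher and 3.38% lower. The summed level of these 11 markers was 611.5 to 792.8 CPM in CON mice and 1422 to 1882 CPM in T + E2 mice. The markers that were higher included Psca (5.72), Krt7 (3.05) and Ly6a (1.52). Another of them, Wfdc2 (1.22), is also counted in the list of other secretory genes.

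By edgeR's quasi-likelihood test 0 of 6 basal and 0 of 12 stromal and muscle markers were DEGs, as by DESeq2. At an unadjusted p below 0.05, 3 basal markers were higher and 1 lower, and 0 stromal and muscle markers were higher and 3 lower. Over all 15580 tested genes, 2705 were higher and 2667 lower. Past edgeR's adjusted p were Trp63 of the basal list (log2 fold change 0.57, adjusted p = 0.0108) and 2 muscle genes. These were Acta2 (-0.50, adjusted p = 0.0137) and Des (-0.38, adjusted p = 0.044). All 3 were named after their values were seen. Krt5, a keratin of basal cells, had a log2 fold change of 0.21 (adjusted p = 0.542 by edgeR). Epididymis and vas deferens markers, 18 genes with 8 at 0 counts in every CON mouse and 7 of those at 0 in all 6 mice, summed to 8.34 to 15.8 CPM in CON mice and 326.4 to 443.1 CPM in T + E2 mice. Of the 9 that could be tested, 8 passed the filter on low counts only with the T + E2 libraries, so that their call as higher was largely fixed by the filter. Adam7, an epididymal metalloprotease gene, was at 0 counts in every CON mouse and at 4.93 to 10.9 CPM in T + E2 mice. A count of 0 allows up to 3 counts, which are 0.183 to 0.208 CPM here. Markers of urothelium summed to 423.1 to 643.2 CPM in CON mice and 1374 to 1703 CPM in T + E2 mice. Of these, 2 of 4 tested were higher, and 2 of the 4 passed the filter only with the T + E2 libraries. Most of both sums was Upk1a, at 273.7 to 502.5 CPM in CON mice and 1180 to 1422 CPM in T + E2 mice. Upk1b followed, and Upk2, Upk3a, Upk3b and Krt20 were at 8.83 CPM or less in every mouse. Immune cell markers summed to 339.2 to 616.8 CPM in CON mice and 477.0 to 635.4 CPM in T + E2 mice, with 1 of 10 higher. Beside these, 4.27% of all tested genes were DEGs that were higher. Of the 8 seminal vesicle markers 3 could be tested. By edgeR and by DESeq2, 0 of these and 0 of the 8 fat and skeletal muscle markers were DEGs. At an unadjusted p below 0.05, 1 and 2 of them were lower, beside 2667 of all 15580 tested genes. The part of these cell types in the changes of the 7 secretory protein genes was not tested.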

How the data were processed

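The authors deposited 1 table with whole-number read counts per gene and FPKM for each mouse. The submitters' processing notes name TopHat, Bowtie2 and HTSeq. Their versions, the annotation and any use of strand in counting are not given in the sources used here, and the study's methods name DESeq2 for its own comparison. The FPKM were made by the authors from gene length and library total.

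The deposited counts were tested in R 4.3.3 with edgeR 4.0.16 (filterByExpr with minimum count 10, TMM, glmQLFit and glmQLFTest), with Benjamini-Hochberg adjustment over all 15580 tested genes. Standard errors are the log2 fold change over the root of F. The biological coefficient of variation was 18%. CPM use the TMM-scaled library, and log2 CPM a prior count of 2. DESeq2 1.42.0 and limma 3.58.1 on log2(FPKM + 0.1) and log2(FPKM + 1) were alternatives. Transcripts (GENCODE M21, GRCm38) were aligned with BLAST 2.17.0, keeping alignments of 100 bases or more. The fitting was tested on simulated data. All columns were assigned to mice from their labels, and the replicates are separate mice, which differed by 16.7 to 36.4 times counting noise (chi-square per degree of freedom).

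The 7 genes and all gene lists were chosen with earlier results of these data known, so counts over lists are descriptions. Named genes were the 7 genes, up to 4 DEGs of largest change per list, some regulators, relatives and markers whatever their result, and the 2 nearest profiles of each of the 7 genes. Some genes that this rule names are not reported here. Mmp7 was named after its value was seen. Alternatives were other normalizations, normalization without the 7 genes, filters, tools, a replicate block and leaving out each mouse.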

Additional observations from a re-analysis of the deposited data

How the results depend on the processing

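Over 14 alternatives the calls on Pbsn, Tgm4, 9530053A07Rik, Sbpl and Azgp1 kept their direction and side of the thresholds, with adjusted p of at most 0.000543, 0.00208, 0.0084, 0.0169 and 0.00745. Leaving out single mice gave 0 to 1 of the 7 genes as DEGs that were higher and 4 to 5 that were lower. The value of 0 came without CON mouse 1, where Msmb was at 0.99, and that of 5 came from the same library, where Sbp reached -1.01. Over the alternatives the adjusted p of Msmb was at most 0.00873, and that of Sbp lay between 0.048 and 0.323. The sum of Sbp and Sbpl was -0.82, and between -1.05 and -0.50 on leaving out single mice. By limma on log2(FPKM + 1), 365 genes were higher and 196 lower over all genes, against 665 and 526 in the main fit. By limma on log2(FPKM + 0.1) they were 662 and 484. The 2 limma fits differ only in the value added before the log, and why it moved the counts was not tested. The share of the 7 genes differed by -12.3 percentage points (-13.3 to -11.8 without single mice). It differed by -3.53 without 9530053A07Rik, which of the 7 genes lost the most CPM. On summed FPKM, which weigh genes by length, the difference was -6.08, from 10.6 ± 1.15% in CON to 4.51 ± 0.577% in T + E2 mice (SD, n = 3). The size of the fall in share thus depended on the measure. The ratio of 9530053A07Rik to Pbsn reversed to -0.0635 without T + E2 replicate 1 (range -0.0635 to 0.621, against 0.326).

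The replicate numbers do not pair the mice, since the deviations of equal numbers correlated at -0.0516, 0.0275 and 0.0463. With a replicate block, 598 genes were higher and 415 lower, of the 7 genes 1 was higher and 4 were lower, and the log2 fold changes were -3.30 for Pbsn, -1.78 for Sbpl, 1.11 for Msmb and -0.79 for Sbp and Sbpl summed. The block changed no call on the 7 genes. Depth was not limiting for genes at this level, and 3 mice per group limit every exact test to a p of 0.1.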
